A study of Mus musculus with 42 samples.

Results

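R-spondins and secreted Wnt antagonists are the proteins outside the cell that raise or lower the response to Wnt ligands. The 10 genes described here were taken by name, out of 19232 gene names that occur in the 12 tables of the series. They were chosen with earlier results of these data known. They are the R-spondin genes Rspo1, Rspo2 and Rspo3, the Dickkopf genes Dkk2 and Dkk3, the secreted Frizzled-related genes Sfrp1, Sfrp2, Sfrp4 and Frzb, and Wif1, which encodes Wnt inhibitory factor. As background, R-spondins bind the receptors Lgr4, Lgr5 and Lgr6 and take the ubiquitin ligases Znrf3 and Rnf43 off the cell surface, so that Frizzled receptors stay there longer. Sfrp proteins, Frzb and Wif1 bind Wnt ligands, and Dkk2 binds the coreceptors Lrp5 and Lrp6, while the part that Dkk3 plays in the pathway is less settled. In the colon the stroma around the crypt base is a known source of R-spondins, on which the stem cells of the epithelium depend.

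The study asks what BMP signaling in the colonic stroma does to the epithelium. Cells positive for tdTomato were sorted out of proximal and of distal colon from mice that carry Gli1-CreERT2 and a Rosa26 tdTomato reporter behind a stop cassette. The controls are named GWTT and keep Smad4 and Alk3, GS4T mice have floxed Smad4, the shared intracellular mediator of BMP and TGF-beta signals, and GA3T mice have floxed Alk3, a BMP receptor that the tables list as Bmpr1a. Controls and knockouts all received tamoxifen at 20 mg/ml, under the skin by the labels and intraperitoneally by the methods of the study, and were sampled at day 30, and the methods give mice of both sexes aged 2 to 4 months. The reporter marks cells that had the Gli1 driver active at the time of tamoxifen and the cells derived from them, so the sorted cells need not express Gli1 themselves. Each genotype and segment has 2 libraries, and both knockouts are set against the same 2 GWTT libraries of their segment. The 12 stromal libraries hold between 14222902 and 23686940 reads on named genes (median 17404903). The series also holds 12 libraries of Muc2-mCherry goblet cells (control GWTM2, GS4M2 and GA3M2 mice, in which the same deletions lie in the stroma) and colonic organoids, which are epithelial cultures and labelled wild type, kept with 10 nM IL-1 (IL1a and IL1b), 10 nM IL-17A or neither for 12 or 72 h.

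The deleted genes followed the labels in the stromal libraries. Smad4 stood at 705 and 835 normalized counts in the proximal GS4T libraries, against 1604 and 1673 in GWTT, a log2 fold change of -1.09 ± 0.12 (SE, n = 2 each, adjusted p = 0.0101). In the distal colon Smad4 was 680 and 1171 against 1781 and 1703 (-0.96, adjusted p = 0.042), just under the fold required for a call. Bmpr1a was 2233 and 1842 in proximal GA3T cells against 2960 and 3220 in GWTT (-0.61, adjusted p = 0.12), and 2203 and 2043 against 3359 and 3485 in distal cells (-0.69, adjusted p = 0.101). Each deleted gene therefore kept a part of its reads in every knockout library, and the Bmpr1a differences did not pass the test.

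Both knockouts of the proximal colon include a library that stands apart in Gli1, the gene whose promoter drives the Cre. Gli1 was at 1.40 CPM (counts per 1000000 reads of the library) in proximal GS4T library 2 and at 1.98 in proximal GA3T library 2. In the other 10 stromal libraries it lay between 38.0 (GWTT proximal library 1) and 99.6 (GWTT distal library 1). Calls in proximal GS4T and GA3T cells without these libraries are given below. By their Xist and chromosome Y reads, proximal GWTT library 1, distal GA3T library 1 and proximal GA3T library 1 came from males and the other 9 from females, so that libraries with number 1 of both GWTT segments are not from 1 animal. All libraries of GS4T mice were female. The labels do not pair the libraries of a number.

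**Figure D1:**
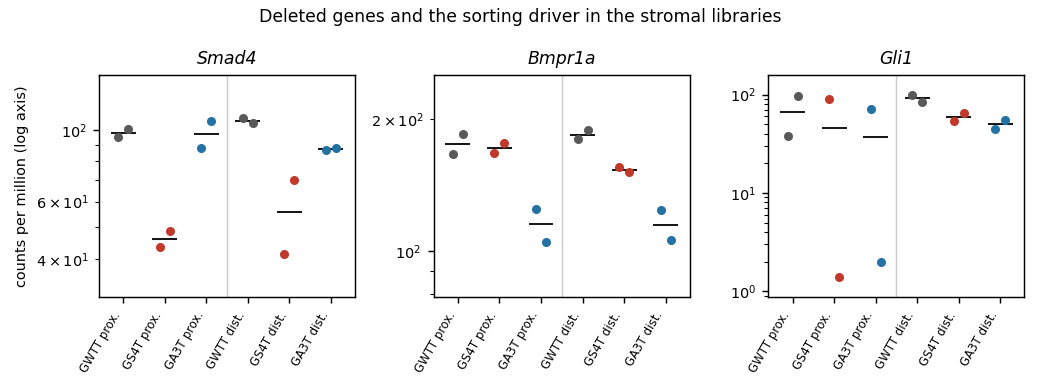
CPM (log axis) of Smad4, Bmpr1a and Gli1 in each of the 12 stromal libraries, by group (points, 2 libraries a group; bars, group mean; grey GWTT, red GS4T, blue GA3T). Smad4 is lowest in GS4T and Bmpr1a lowest in GA3T libraries, and Gli1 is at 1.40 and 1.98 in a proximal library of each knockout.

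The sorted cells carried stromal markers throughout. The 7 fibroblast markers (Pdgfra, Col1a1, Col1a2, Col3a1, Dcn, Lum, Pdpn) summed to between 40471 and 57374 CPM over the 12 libraries, with Col3a1 the most abundant in each. The 6 epithelial markers, led by Krt8, were at 11.1 and 419 in proximal GWTT libraries, 1053 and 1279 in proximal GS4T and 417 and 636 in proximal GA3T. In the distal colon they were at 47.7 and 144.5 in GWTT, 569 and 1117 in GS4T and 820 and 346 in GA3T. Epithelial RNA was thus lower in 3 of the 4 GWTT libraries than in any knockout library, and in proximal GWTT library 1 the goblet markers Tff3 and Zg16 had no reads. Sorted goblet cells had few reads of the 10 genes.

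Rows for all 10 genes exist in the 4 stromal tables and in no other table. Tables of distal goblet cells and of organoids at 12 h have a row for none of the 10, and these tables leave out genes with few reads. Wif1 is listed in the proximal goblet tables, at 9 and 9 reads in the GWTM2 libraries, 31 and 27 in GA3M2 and 9 and 15 in libraries labelled GS4M2. Its log2 fold change was 1.5 ± 0.53 (SE, n = 2 each) in GA3M2 cells with limma (adjusted p = 0.28), where 0.0899% of 13346 genes were called, and 0.43 ± 0.55 in cells labelled GS4M2 (adjusted p = 0.74), where 0.325% of 13246 were. Fibroblast markers were higher with it, at a sum of 0.40 and 0.25 CPM in proximal GWTM2 libraries and 4.35 and 22.4 in GA3M2, where Col1a1 was the most abundant. Of the 4 tested there (Col1a1, Col1a2, Col3a1 and Dcn) limma called 0 and 4 passed at an unadjusted p, beside 6.83% of all genes, and their part in the Wif1 value was not tested. Headings of a supplementary table of the paper name the groups of that GS4M2 table the other way round, so its sign depends on the deposited names. By those names, both GWTM2 libraries had the same reads there as in the GA3M2 table, in 13686 of 13686 genes present in both. Sfrp1 had 9 and 1 reads in proximal GWTM2 and 10 and 6 in GA3M2 libraries. In organoids at 72 h Wif1 had 6, 0 and 0 reads in controls, 7, 14 and 9 with IL-17A and 5, 0 and 14 with IL-1, below the mean of 10 normalized counts required for a test. Of these controls, 2 have the reads of 2 controls of the 12 h set in 99.99% of genes and differ from them by far less than the sampling noise (chi-square per degree of freedom 0.085 and 0.13). They were taken as the same libraries under both labels, so times were not compared.

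Levels can be compared between the genes per length, as RPKM, which is CPM divided by the length of the exons in kilobases. Over the 12 stromal libraries the median RPKM was highest for Sfrp1 at 241, followed by Dkk3 at 127, Sfrp2 at 20.9, Frzb at 18.1, Sfrp4 at 8.23, Wif1 at 7.07, Rspo1 at 4.06, Rspo3 at 4.04, Dkk2 at 1.61 and Rspo2 at 0.192. Sfrp1 and Dkk3 thus far exceeded every R-spondin in these cells, and they also varied least. The ratio of the highest to the lowest library in CPM was 1.58 for Dkk3 and 2.18 for Sfrp1. For the others it ran from 3.71 (Rspo1) and 3.97 (Rspo3) over 8.24 (Sfrp4), 21.7 (Sfrp2), 23.0 (Wif1), 23.9 (Dkk2) and 28.0 (Rspo2) to 40.4 (Frzb). The order differed between the groups. The place of Frzb rests on knockout libraries, since its mean was 2.18 and 5.62 RPKM in proximal and distal GWTT cells and 53.5 and 67.8 in GS4T. In proximal GWTT cells Sfrp4 was the third at 22.4 ± 8.07 RPKM and Wif1 the last at 1.14 ± 0.26, within the spread of Rspo2 at 1.49 ± 0.96. Rspo3 (7.92 ± 0.42 RPKM, SD, n = 2), Sfrp2 (7.73 ± 1.29) and Rspo1 (6.5 ± 3.7) lay within their spread there, as did Dkk2 (2.29 ± 0.52) and Frzb (2.18 ± 0.54). Distal GWTT cells had Sfrp4 at 11.5 ± 1.67 and Wif1 at 9.98 ± 2.0, also within their spread, with Sfrp2 above them at 45.1 ± 10.8.

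**Figure D2:**
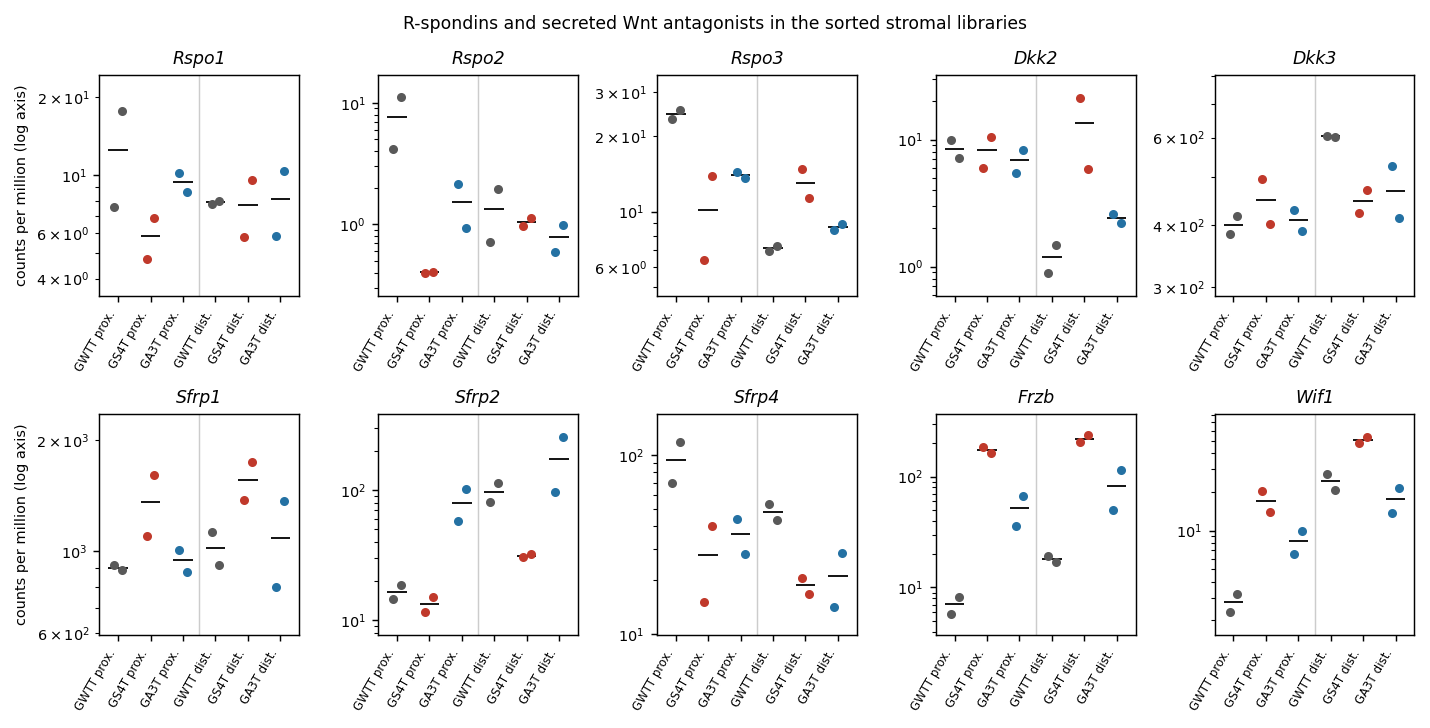
CPM (log axis, a scale of its own in each panel) of the 10 genes in each of the 12 stromal libraries (points, 2 libraries a group; bars, group mean; grey GWTT, red GS4T, blue GA3T). Frzb runs from 5.81 in a proximal GWTT library to 235 in a distal GS4T library, and Rspo2 from 11.1 in proximal GWTT to 0.40 in proximal GS4T.

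The first comparison asks which of the 10 genes change in stromal cells without Smad4. Each table was tested over all its genes with limma, and a gene was called at an adjusted p under 0.05 with a log2 fold change of at least 1 in size. In proximal GS4T cells Frzb and Wif1 rose and Rspo2 fell, 3 of 10, where 9.61% of 15319 genes were called. In distal GS4T cells Frzb, Dkk2 and Wif1 rose and Sfrp2 and Sfrp4 fell, 5 of 10, where 14.0% of 15262 genes were. The median log2 fold change of the 10 was -0.20 for proximal and 0.28 for distal cells, against 0.02 and 0.00 over all genes tested. The libraries of GS4T and GWTT did not overlap for 7 of the 10 genes in the proximal colon and for 8 in the distal colon, near the 65.4% and 67.5% of all genes tested whose libraries were apart.

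The proximal calls hang on a pair of knockout libraries. Without proximal GS4T library 1, limma called 0 genes and 0 of the 10, and without library 2, the one low in Gli1, it called 217 genes and Frzb alone of the 10. With 1 library left in a group, the fit assumes that it varies as the other group does. When all 12 stromal libraries were fitted together in CPM, 5 of the 10 were called in proximal GS4T cells, Rspo3 and Sfrp4 beside Frzb, Wif1 and Rspo2, where 11.7% of genes were. The same 5 were called in that fit without both libraries low in Gli1 (6.62% of genes), and with sex as a covariate (7.95%). Without distal GWTT library 1 or 2 limma called 947 and 1096 genes there, and 3 of the 10 in each case.

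The second comparison asks the same of stromal cells without Alk3. In proximal GA3T cells limma called none of the 10 within the table, that is 0 with the adjusted p, where it called 0.358% of 15346 genes. At an unadjusted p under 0.05 and the same fold, 5 of the 10 passed (9.46% of genes). DESeq2 called 5 of the 10 (6.31% of genes), namely Frzb, Sfrp2 and Wif1 upward and Sfrp4 and Rspo2 downward, while edgeR called 0 of the 10 and 0% of genes. The fit of all 12 stromal libraries with limma called 3, Frzb, Sfrp2 and Wif1, all higher in GA3T, and 4.64% of genes. Without both libraries low in Gli1 that fit called 0 of the 10 and 0.319% of genes, with 4 of the 10 at an unadjusted p (5.46%), and no other tool was run without them. In distal GA3T cells limma called 0 of the 10 and 0% of 15414 genes, with 2 of the 10 at an unadjusted p (7.77% of genes), 2 by DESeq2 (5.03%) and 0 by edgeR (0%). Leaving out distal GA3T library 1 gave 583 genes and 2 of the 10, and leaving out proximal GA3T library 1 gave 244 genes and 2 of the 10. Without proximal GWTT library 2 limma called 112 genes, and each other library left out of either table gave at most 1 gene, with 0 of the 10 in all of these cases. The libraries of GA3T and GWTT did not overlap for 6 of the 10 genes in the proximal colon and for 5 in the distal colon. This is near the 56.4% and 54.3% of all genes tested whose libraries were apart. Since GS4T and GA3T share their controls, the values of both are set side by side below and read no further together.

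**Figure D3:**
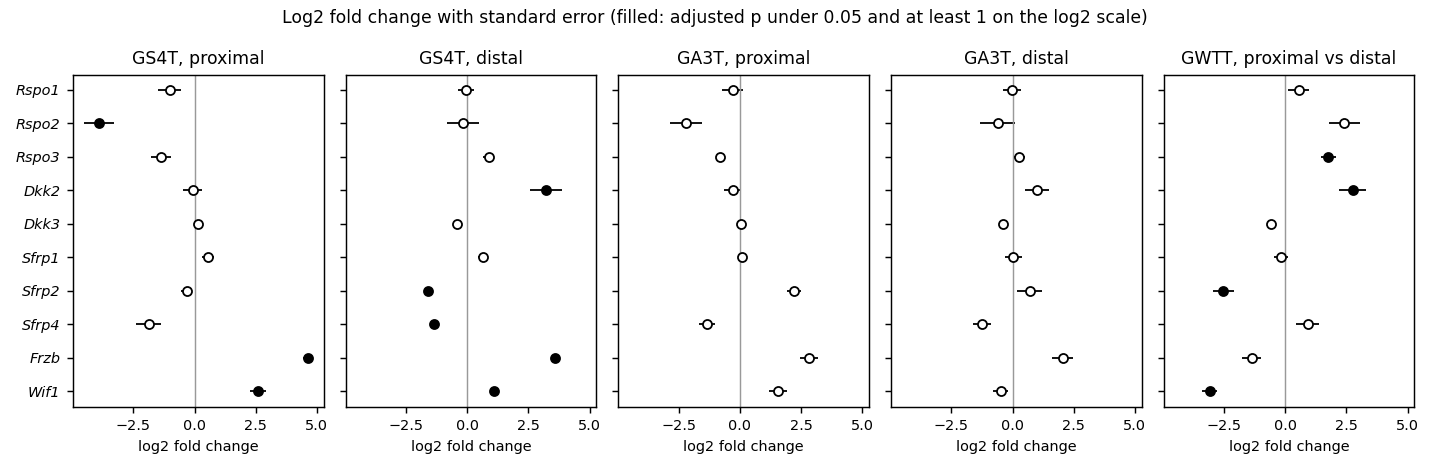
Log2 fold change with its standard error (bars) of the 10 genes in GS4T and GA3T against GWTT cells of each segment, and in proximal against distal GWTT cells (2 libraries a group; filled points, called with limma). With all libraries used, Frzb has the largest increase in GS4T cells of both segments, 4.62 and 3.61, and Rspo2 the largest decrease, -3.90, in proximal cells.

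Among the R-spondins, Rspo2 was the gene that limma called in a knockout within its own table. Rspo2 had 70.3 and 184 normalized counts in proximal GWTT libraries and 6.46 and 6.98 in proximal GS4T, which are 7 and 7 reads. The groups did not overlap, and the log2 fold change was -3.90 ± 0.60 (SE, n = 2 each, adjusted p = 0.0192). Without GS4T library 1 the adjusted p was 0.135 at a log2 fold change of -3.85, and without library 2 it was 0.116 at -3.95. The call was kept without GWTT library 1 (-4.59, adjusted p = 0.0121) or 2 (-3.21, adjusted p = 0.0231), and under the other settings, where the fold lay between -4.26 and -2.90, so its size is known only roughly. In proximal GA3T libraries Rspo2 was at 38.1 and 16.5, against 74.0 and 194 in the same controls on that table's scale (-2.21, adjusted p = 0.17). Distal cells had little Rspo2 in any genotype, 11.7 and 31.9 in GWTT and 15.9 and 18.8 in GS4T (-0.16, adjusted p = 0.88), and in distal GA3T 10.5 and 19.1 against 13.4 and 36.4 (-0.61, adjusted p = 0.68). The fall of Rspo2 in proximal GS4T cells thus started from the only group in which each library held more than 3 CPM.

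Rspo3, the R-spondin with the most normalized counts in proximal control cells, had 398 and 421 there. In proximal GS4T libraries it was at 104 and 236, lower in each, a difference of -1.38 ± 0.40 on the log2 scale (adjusted p = 0.078) that the table's own fit did not call. DESeq2 called it (-1.28, adjusted p = 0.021), the fit of 12 libraries gave an adjusted p of 0.0167 at -1.37, and without both libraries low in Gli1 it gave 0.00749 at -1.92. In distal cells the order was the other way, 114 and 118 in GWTT and 242 and 189 in GS4T (0.87 ± 0.24, adjusted p = 0.048), under the fold required. GA3T libraries had 258 and 239 against 419 and 443 in the proximal colon (-0.79, adjusted p = 0.10) and 150 and 171 against 131 and 134 in the distal colon (0.27, adjusted p = 0.56). Exons of Rspo3 share 404 bases with those of Gm48159 on the other strand, and with the strand setting of the counts not stated, reads of both cannot be told apart there.

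Rspo1 was not called in any of these tables. Its normalized counts were 127 and 293 in proximal GWTT against 77.5 and 118 in GS4T (-1.01, adjusted p = 0.20), and 182 and 151 in GA3T against 134 and 308 (-0.29, adjusted p = 0.73). In distal cells the groups overlapped, at 127 and 130 in GWTT and 94.8 and 160 in GS4T (-0.06), and at 104 and 200 in GA3T against 145 and 148 (-0.02). The control libraries of the proximal colon differ from each other widely in Rspo1 and Rspo2, with library 2 the higher in both genes.

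Frzb, a secreted Frizzled-related protein that binds Wnt ligands, had the largest increase of the 10 in GS4T cells of either segment with all libraries used. In distal cells Frzb stood below Dkk2 without GS4T library 2 (3.49 against 4.14) or GWTT library 2 (3.51 against 3.58). It stood at 98.2 and 137 normalized counts in proximal GWTT libraries and at 3007 and 2768 in GS4T, a ratio of means of 24.5. The log2 fold change was 4.62 ± 0.19 (SE, n = 2 each, adjusted p = 0.00352). It remained called without proximal GS4T library 2 (4.68, adjusted p = 0.0369) but not without library 1 (4.56, adjusted p = 0.0657). Distal GS4T libraries had 3345 and 3918 against 317 and 277, a log2 fold change of 3.61 ± 0.14 (adjusted p = 0.000391), called with each library left out in turn. GA3T libraries lay between the controls and GS4T. They held 645 and 1179 against 103 and 144 in the proximal colon (2.83 ± 0.35, adjusted p = 0.066) and 888 and 2204 against 361 and 315 in the distal colon (2.05 ± 0.42, adjusted p = 0.13). The fit of 12 libraries called Frzb in proximal GA3T cells (2.81, adjusted p = 0.00568), and without both libraries low in Gli1 it did not (2.36, adjusted p = 0.103). In bulk RNA of sorted cells, a change in the share of cells that express a gene and a change in RNA per cell cannot be told apart, here and in every other result.

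Sfrp2 fell in distal GS4T cells. Its normalized counts were 1321 and 1844 in distal GWTT libraries and 503 and 535 in distal GS4T, a log2 fold change of -1.59 ± 0.18 (adjusted p = 0.00412) that was called with each library left out in turn. In distal GA3T cells it was 1702 and 4873 against 1507 and 2099 (0.69, adjusted p = 0.50), with overlapping groups. Proximal cells had less Sfrp2, 248 and 308 in GWTT and 190 and 257 in GS4T (-0.32, adjusted p = 0.38). Proximal GA3T libraries held 1033 and 1774 against 261 and 324, apart from the controls (2.21 ± 0.29, adjusted p = 0.070). In the fit of 12 libraries this increase was called (adjusted p = 0.018), and without both libraries low in Gli1 it was not (1.80, adjusted p = 0.23). Exons of Sfrp2 share 347 bases with those of Gm26771 on the other strand, so reads of both cannot be told apart there.

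Sfrp4 was lower in every knockout library than in its table's controls, where 54.3% to 67.5% of all genes tested had libraries apart. It fell in distal GS4T cells, from 872 and 704 normalized counts in GWTT to 338 and 281, by 1.34 on the log2 scale (SE 0.18, adjusted p = 0.00616). Leaving out distal GWTT library 1 gave an adjusted p of 0.061 at -1.19, and the fit of 12 libraries 0.069 at -1.36. Apart from leaving out single libraries, the distal call was lost under 2 of 12 other settings. In proximal cells the Sfrp4 values were 246 and 692 in GS4T against 1183 and 1951 (-1.88 ± 0.53, adjusted p = 0.072), and the fit of 12 libraries called it (-1.87, adjusted p = 0.0253). GA3T libraries had 789 and 494 against 1244 and 2051 in the proximal colon (-1.35, adjusted p = 0.13) and 254 and 545 against 995 and 801 in the distal colon (-1.26, adjusted p = 0.19).

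Sfrp1, the most abundant of the 10, was called in none of the tables. It held 17874 and 27567 normalized counts in proximal GS4T libraries against 15460 and 14759 in GWTT, a log2 fold change of 0.56 ± 0.24 (adjusted p = 0.17). Distal GS4T libraries had 22624 and 29129 against 18475 and 14935 (0.63 ± 0.20, adjusted p = 0.071). All GS4T libraries were thus above their controls, by less than the fold required. In GA3T cells the groups overlapped in both segments, with log2 fold changes of 0.07 and 0.03.

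Wif1, which binds and holds back Wnt ligands, rose in GS4T cells of both segments from very different control levels. In the proximal colon it went from 39.3 and 53.3 normalized counts in GWTT to 333 and 237 in GS4T, a log2 fold change of 2.59 ± 0.31 (SE, n = 2 each, adjusted p = 0.0115). In the distal colon it went from 454 and 338 to 789 and 894, a log2 fold change of 1.10 ± 0.18 (adjusted p = 0.0118). The groups did not overlap in either segment, yet the highest proximal GS4T library was still below the lowest distal control in CPM (20.4 against 20.8). Leaving out proximal GS4T library 1 or 2 gave adjusted p values of 0.125 (2.35) and 0.0837 (2.84). In the distal colon, leaving out GWTT library 2 gave 0.89 (adjusted p = 0.0669) and leaving out GS4T library 2 gave 1.01 (adjusted p = 0.0587). Proximal GA3T libraries had 117 and 174 against 41.3 and 56.0 (1.55 ± 0.36, adjusted p = 0.12), called in the fit of 12 libraries (adjusted p = 0.0235) and not called there without both libraries low in Gli1 (1.23, adjusted p = 0.23). Distal GA3T libraries had 244 and 413 against 518 and 384 (-0.49, adjusted p = 0.43), with overlapping groups.

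Dkk2, an antagonist that acts on the Lrp coreceptors, rose in distal GS4T cells. Distal GWTT libraries had 14.7 and 24.2 normalized counts and distal GS4T libraries 350 and 98.6, a log2 fold change of 3.23 ± 0.65 (adjusted p = 0.0212). The GS4T libraries differ from each other, and the call was lost without GWTT library 1 (2.89, adjusted p = 0.11), GWTT library 2 (3.58, adjusted p = 0.0654) or GS4T library 1 (2.33, adjusted p = 0.0701). In proximal cells the groups overlapped, at 97.8 and 179 in GS4T against 166 and 118 (-0.08, adjusted p = 0.90), and at 98.2 and 145 in GA3T against 175 and 124 (-0.30). Distal GA3T libraries had 45.8 and 42.5 against 16.7 and 27.5 (1.01 ± 0.48, adjusted p = 0.33).

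Dkk3 had the narrowest range of the 10 over the stromal libraries. Its normalized counts were 6931 and 7842 in distal GS4T libraries against 9914 and 9781 in GWTT (-0.42 ± 0.12, adjusted p = 0.059), and 9364 and 7950 in distal GA3T against 11310 and 11131 (-0.38 ± 0.15, adjusted p = 0.27). The groups were apart in both distal tables, with every knockout library the lower. In proximal cells they overlapped, with log2 fold changes of 0.16 in GS4T and 0.04 in GA3T.

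Segments of the control colon were compared in CPM, in limma's fit of the 12 stromal libraries. In proximal against distal GWTT cells Rspo3 and Dkk2 were higher and Wif1 and Sfrp2 were lower, 4 of 10 called, where 1.32% of 15353 genes were. Wif1 stood at 2.32 and 3.21 CPM in proximal and 27.7 and 20.8 in distal GWTT libraries, a log2 fold change of -3.09 ± 0.31 (adjusted p = 0.00537). Sfrp2 stood at 14.7 and 18.6 against 80.5 and 114, a log2 fold change of -2.53 ± 0.42 (adjusted p = 0.0212). Control cells of the distal colon thus had more of these antagonists, and those of the proximal colon more of the R-spondin gene Rspo3, at 23.5 and 25.4 against 6.97 and 7.27 (1.77 ± 0.31, adjusted p = 0.0284). Dkk2 was also higher in proximal cells, 9.85 and 7.10 against 0.894 and 1.49 (2.75 ± 0.56, adjusted p = 0.048). Rspo2 was at 4.16 and 11.1 in proximal and 0.715 and 1.97 in distal controls (2.41 ± 0.63, adjusted p = 0.0997), apart but not called.

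The segment calls in controls rest on few libraries. Leaving out any GWTT library leaves 1 in its group, and fewer of all genes were then called. The calls of Rspo3, Dkk2 and Sfrp2 were kept in none of these settings. That of Wif1 was not kept without distal GWTT library 1. The log2 fold change lay between -3.31 and -2.86 for Wif1 and between -2.77 and -2.28 for Sfrp2. It lay between 1.71 and 1.82 for Rspo3 and between 2.41 and 3.09 for Dkk2. The log2 fold changes of the 4 kept their sign throughout. With sex as a covariate, Wif1 and Sfrp2 were called, with 0.938% of genes, while Rspo3 (adjusted p = 0.0614) and Dkk2 (adjusted p = 0.104) were not. The Dkk2 call was also lost with a pseudocount of 0.5 CPM, with edgeR (adjusted p = 0.063), with the replicate as a block (adjusted p = 0.0651) and without both libraries low in Gli1 (adjusted p = 0.0762). Over the mean of the 3 genotypes, with 6 libraries a side, limma called Wif1 (-1.92 ± 0.18, adjusted p = 0.00156) and Sfrp2 (-1.60 ± 0.24, adjusted p = 0.0192), 2 of 10, where 0.671% of genes were called. Wif1 was called there with each of the 12 libraries left out in turn. For Sfrp2 the call was lost in 6 of the 12, without proximal GA3T library 1 or GS4T library 2, distal GS4T library 1 or 2, or distal GWTT library 1 or 2, with adjusted p values of 0.051, 0.0523, 0.0522, 0.0549, 0.0583 and 0.0792.

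Whether a knockout acts differently in the segments was tested as an interaction in the same fit. For GS4T limma called 0 of the 10 and 0.0326% of 15353 genes, with 4 of the 10 at an unadjusted p (5.04% of genes). DESeq2 called 3, Dkk2, Rspo2 and Rspo3 (1.53% of genes), and edgeR 0 (0.0326%). The sizes in limma were -3.60 ± 0.90 for Rspo2 (adjusted p = 0.21), -3.25 ± 0.80 for Dkk2 (adjusted p = 0.21) and -2.22 ± 0.44 for Rspo3 (adjusted p = 0.13), each lower in the proximal effect. The opposite signs of Rspo3 in proximal and distal GS4T cells were thus a difference of more than 2 on the log2 scale that did not pass over all genes with limma. Leaving out proximal GS4T library 2, the one low in Gli1, leaves 1 library in that group, and calls from that fit are not read. For GA3T limma called 0 of the 10 and 0.0261% of genes, with 3 of the 10 at an unadjusted p (3.37%), edgeR called 0 (0.0261%) and DESeq2 called Wif1 (0.729%), whose difference in limma was 2.01 ± 0.44 (adjusted p = 0.41).

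GS4T and GA3T libraries were also set against each other, a contrast added after the data were seen. In the distal colon Sfrp2 was lower and Wif1 higher in GS4T, 2 of 10, where 2.12% of 15353 genes were called. Sfrp2 was at 30.7 and 32.1 CPM in distal GS4T against 95.6 and 253 in GA3T, a log2 difference of -2.31 ± 0.42 (adjusted p = 0.0275). Wif1 was at 48.1 and 53.5 against 13.7 and 21.4, a log2 difference of 1.56 ± 0.31 (adjusted p = 0.0384). The libraries of both groups are apart for each of these genes. Sfrp2 was no longer called without GA3T library 2 (-1.60, adjusted p = 0.0528) or GS4T library 1 or 2 (adjusted p = 0.0961 and 0.0884). Wif1 was not called without GA3T library 1 (1.24, adjusted p = 0.162) or GS4T library 1 or 2 (adjusted p = 0.106 and 0.132). Cell markers differed in the same contrast. The pericyte markers Notch3 (1.81) and Rgs5 (1.98), the smooth muscle markers Actg2 (1.48) and Des (1.74), the mesothelial marker Msln (2.98) and the leukocyte markers S100a8 (5.23) and S100a9 (4.71) were higher in distal GS4T, and the leukocyte markers Cd79a (-2.83) and Jchain (-3.07), the fibroblast marker Lum (-1.49) and the telocyte marker Sox6 (-1.38) were lower. Their part in the differences of Sfrp2 and Wif1 was not tested.

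In the proximal colon the contrast of GS4T and GA3T gave 0 of the 10 with limma and 0.0782% of genes, 4 of the 10 at an unadjusted p (3.09%), 0 with edgeR (0.0782%) and 2 with DESeq2 (1.13%), Frzb and Sfrp2. Sfrp2 differed there by -2.52 ± 0.42 (adjusted p = 0.098) and Frzb by 1.81 ± 0.38 (adjusted p = 0.16) in limma. Proximal GS4T libraries had Sfrp2 at 11.7 and 15.0 CPM and proximal GA3T libraries at 57.8 and 101, so that the groups were apart as in the distal colon. With sex as a covariate both genes were called in this contrast (adjusted p = 0.0057 and 0.0478), where 0.104% of genes were. A gene of the 10 was also called with the library number as a block, though the labels do not pair the libraries. Without both libraries low in Gli1, limma called 0 of the 10 and 0.0716% of genes, with 5 of the 10 at an unadjusted p (4.08%), and edgeR and DESeq2 were not run on that set.

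Markers of other cells moved with these comparisons, and their part in the changes of the 10 genes was not tested. All 6 epithelial markers rose in distal GS4T cells and 1 of 6, Krt18, in proximal GS4T cells. Trophocyte markers, which mark fibroblasts below the crypt that express R-spondins and Grem1, summed to 2736 and 2665 CPM in proximal GWTT libraries and to between 745 and 1914 in the other 10. In proximal GS4T cells 3 of the 5, Cd34, Cd81 and Ackr4, fell, by 2.32, 1.71 and 2.37 on the log2 scale. In distal GS4T cells Cd34 and Pi16 fell and Grem1 rose. The proximal controls, where Rspo2 and Rspo3 were highest, were thus also the libraries with the most trophocyte RNA.

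Telocyte markers showed the reverse. They mark fibroblasts under the epithelium that are known to express Foxl1 and BMP ligands, and summed to 1250 and 1200 CPM in proximal GWTT libraries, the lowest of the 12, with Pdgfra the most abundant in each library. Of the 6 markers, Foxl1, Bmp5, Bmp7 and Sox6 rose in proximal GS4T cells, Foxl1, Bmp5 and Bmp7 rose in proximal GA3T cells, and Bmp7 rose in distal GS4T cells. Within the GA3T tables these 3 telocyte markers were the marker genes that limma called. In proximal GA3T cells the fit of 12 libraries called Frzb, Sfrp2 and Wif1, and with them further markers. These were Sox6, the leukocyte markers Csf1r, Lyz2 and S100a9 and the smooth muscle markers Acta2 and Actg2, all higher. In distal GA3T cells the table's own fit called 0. At an unadjusted p and the fold, 6 of 6 epithelial and 4 of 7 goblet markers passed there (7.77% of all genes). So did 3 mesothelial and 2 leukocyte markers, Bmp7 and Cd34. In proximal against distal GWTT cells Foxl1 (-1.97), Bmp5 (-1.57) and Bmp7 (-2.23) were lower, as Wif1 was. Pericyte markers, led by Pdgfrb, summed to 1108 and 980 in distal GS4T libraries and to between 425 and 667 in the other 10, and Rgs5, Notch3 and Kcnj8 rose in distal and Kcnj8 in proximal GS4T cells. Leukocyte markers were highest in distal GWTT libraries, at 3883 and 5070. The neutrophil genes S100a8 and S100a9 rose in GS4T cells of both segments, as did Lyz2, and Jchain fell in both. Csf1r rose in proximal and Cd79a fell in distal GS4T cells.

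Markers on the remaining lists were also called in GS4T cells. Smooth muscle markers, led by Acta2 or Myh11, summed to 456 and 329 in proximal GWTT libraries and to between 725 and 1592 in the other 10, and 2 of 6, Acta2 and Actg2, rose in proximal GS4T cells. Actg2 rose and Myh11 fell in distal GS4T cells, and Myh11 was lower in proximal than distal GWTT cells (-1.70). Endothelial markers summed to between 27.1 and 196, and 3 of 5, Vwf, Cdh5 and Lyve1, rose in proximal GS4T cells. Goblet markers summed to 4.7 in proximal GWTT library 1 and to between 138 and 941 in the others, and Spdef rose in proximal GS4T cells, while in distal GS4T cells Muc2, Tff3 and Agr2 rose and Clca1 fell. Of the fibroblast markers Lum fell in GS4T cells of both segments, Dcn fell in distal ones and Pdpn rose in proximal ones. Mesothelial markers stayed between 5.9 and 19.3, with Upk3b at 0 reads in proximal GS4T library 1, and Wt1 fell in proximal and Msln rose in distal GS4T cells. Without proximal GS4T library 2, the calls kept among the proximal markers named here were those of Cd34, Cd81, Bmp5, Bmp7, Lyz2, Acta2 and Lum. The fit of 12 libraries without both that are low in Gli1 also called these 7, with Foxl1, Csf1r, S100a9, Actg2 and Pdpn, and did not call the epithelial, goblet, endothelial, pericyte and mesothelial markers. In proximal GA3T cells that fit called Bmp5 and Bmp7 but not Foxl1, and the table without GA3T library 2 lost all 3.

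Other genes of the pathway were read from lists. Of the R-spondin receptors and ligases Lgr4, Lgr5, Lgr6, Znrf3 and Rnf43, 4 were tested in each stromal table and limma called 0, with 1, Rnf43, past the fold at an unadjusted p in each, beside 16% and 18.5% of all genes in proximal and distal GS4T and 9.46% and 7.77% in GA3T cells, and the other tools were not read for the lists. Rnf43, a ligase that removes Frizzled, was at 66.4 and 162 normalized counts in proximal GS4T libraries against 25.8 and 33.8 in GWTT, and at 59.3 and 149 in distal ones against 9.78 and 33.9. It was higher in GS4T libraries, which also had more epithelial RNA, and the part of that RNA in the Rnf43 values was not tested. Lgr4 was at 299 and 460 normalized counts in proximal GWTT libraries and 460 and 559 in GS4T. Of 11 other secreted regulators and Kremen genes, 3 were tested in proximal GS4T cells and 1 was called, where 9.61% of all genes were. This was Draxin, a secreted Wnt antagonist better known from axon guidance, which rose in GS4T cells of both segments. It went from 3.10 and 11.3 to 445 and 267 normalized counts in the proximal colon (5.61, adjusted p = 0.0105) and from 15.6 and 5.81 to 466 and 1103 in the distal colon (6.08, adjusted p = 0.00278). Draxin was also at 328 and 463 in proximal GA3T libraries against 3.26 and 11.9, and at 558 and 916 in distal ones against 17.8 and 6.61, without a call in either table's own fit. The fit of 12 libraries called Draxin in proximal GA3T cells, higher than in GWTT, and did not call it without both libraries low in Gli1. Kremen2, a receptor for Dickkopf proteins, had 0 and 1.94 normalized counts in distal GWTT and 21.3 and 38.8 in distal GS4T libraries, with too few reads in controls for a fold. Of this list, Dkkl1, Draxin and Kremen2 passed the fold at an unadjusted p with limma in distal GS4T cells (18.5% of all genes). In distal GA3T cells Dkkl1 and Draxin did (7.77%).

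Of 14 Frizzled, Lrp, Ror and Ryk receptors tested, 1 rose and 2 fell in GS4T cells of each segment. Fzd4 fell by 2.18 in proximal and 1.08 in distal cells, and Fzd7 fell by 1.29 and 1.38, on the log2 scale. Fzd2 rose in proximal (1.03) and Ror2 in distal GS4T cells (1.78). Of 9 Wnt ligands tested beside Wnt10a, 1 rose and 2 fell in proximal GS4T cells and 2 rose and 3 fell in distal ones. These counts stand beside 9.61% and 14.0% of all genes called in proximal and distal GS4T cells. The ligands were Wnt5a upward and Wnt2b and Wnt9a downward in the proximal colon, and Wnt5a and Wnt6 upward and Wnt2b, Wnt4 and Wnt5b downward in the distal colon. Wnt10a, with 0 and 0 normalized counts in proximal and 0.978 and 3.87 in distal controls, was at 18.4 and 28.9 in proximal and 39.9 and 25.8 in distal GS4T libraries and is left out of these counts, since the pseudocount sets much of its fold. Wnt2b fell in both segments, from 9028 and 9358 to 2697 and 2312 normalized counts in the proximal colon (-1.88) and from 8404 and 7831 to 2050 and 2297 in the distal colon (-1.90). Wnt5a rose in GS4T cells of both segments (1.72 and 1.26). In the table's own fit it also rose in proximal GA3T cells, alone among these pathway genes (2.45, adjusted p = 0.0489), from 1470 and 1852 to 7684 and 10578. The fit of 12 libraries also called Draxin and Fzd2 upward and Wnt2b and Fzd4 downward in proximal GA3T cells. Without both libraries low in Gli1 it did not call these.

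Of the 13 Wnt target genes on the list, 2 of 10 tested were called in proximal and 2 of 11 in distal GS4T cells, beside 9.61% and 14.0% of all genes. Nkd2 rose in proximal (1.14) and distal cells (1.09). Lef1 rose in distal cells (1.02) and Myc fell in proximal ones (-1.55). Axin2, a widely used readout of the pathway, was at 301 and 223 normalized counts in proximal GS4T against 290 and 396 in GWTT, and at 191 and 245 in distal GS4T against 302 and 407, without a call. Wls and Porcn, which serve the release of Wnt ligands, were not called. Among the pathway genes called in proximal GS4T cells, Wnt2b alone was still called without library 2. Draxin, Wnt5a, Wnt2b, Fzd4 and Myc were called in the fit of 12 libraries without both that are low in Gli1, and Wnt9a, Fzd2, Fzd7 and Nkd2 were not. For proximal GA3T cells that fit called Wnt5a, and the table without GA3T library 2 did not. In proximal against distal GWTT cells Lef1 (-2.82) and the ligand Wnt2 (-2.30) were lower and Ror1 (1.14) was higher.

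Genes most like each of the 10 were found by Pearson correlation of log2 CPM over the 12 stromal libraries, among 13490 genes (predicted and numbered genes left out), as a description with no test. The points share the 6 groups, so that these values describe the groups as much as the genes. Frzb had the closest, with Marcksl1 (0.988), Sdc1 (0.983) and Gatad2a (0.981). Marcksl1 was at 14.1 and 16.9 CPM in proximal GWTT and 111 and 94.9 in proximal GS4T libraries. The nearest to Wif1 were Camk2d, Tbx3 and Trpc6 (0.955, 0.954 and 0.953), and to Rspo2 Trim24, Vegfd and Meis2 (0.932, 0.931 and 0.923). For Rspo3 they were Phtf1, Ccnd2 and Hip1 (0.872, 0.871 and 0.863), and for Rspo1 Msantd1, Meox2 and Adap1 (0.868, 0.809 and 0.803). Sfrp2 was nearest to Frem2, Ptprg and Ptprs (0.921, 0.919 and 0.917), Sfrp4 to Abi2, Cxcr3 and Ext1 (0.947, 0.922 and 0.921), and Sfrp1 to Serpina3i, Hs3st1 and Serpina3n (0.885, 0.883 and 0.882). Dkk3 was nearest to Fendrr, Dach1 and Tmem252 (0.963, 0.943 and 0.911), and Dkk2 to Map3k7cl, Picalm and Dio3 (0.912, 0.904 and 0.890). Among the 10 themselves the highest values were those of Rspo2 with Sfrp4 (0.77) and Rspo1 (0.76) and of Frzb with Wif1 (0.74), and the lowest was that of Frzb with Sfrp4 (-0.80).

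The 10 genes lie apart in the genome, on chromosomes 2 (Frzb), 3 (Sfrp2 and Dkk2), 4 (Rspo1), 7 (Dkk3), 8 (Sfrp1), 10 (Rspo3 and Wif1), 13 (Sfrp4) and 15 (Rspo2) of GRCm38. Promoter sequences from RefSeq (GRCm38.p6) were matched for 5 of the 10, Frzb, Sfrp2, Dkk2, Rspo1 and Wif1, each 300 bases around the RefSeq start. The Frzb window lies mostly within the GENCODE model of the gene, which begins at position 80447625 on the minus strand, so its sequence is largely not upstream of that model. They were searched on both strands for the Smad box CAGAC, a short motif known to bind Smad proteins, whose other strand reads GTCTG. The same was done for CTTTGA, which reads TCAAAG on the other strand, a core of the motif bound by TCF and LEF factors. The motifs were chosen after the sequences had been seen, and they do not overlap each other. Of 32851 promoters, 49.6% hold the Smad box and 16% the TCF core. Shown are the promoters of Frzb and Wif1, which rose in GS4T cells of both segments, and of Sfrp2, which fell in distal GS4T cells, 5′ to 3′ with matches in capitals.
Frzb, chr2:80447347-80447646, minus strand: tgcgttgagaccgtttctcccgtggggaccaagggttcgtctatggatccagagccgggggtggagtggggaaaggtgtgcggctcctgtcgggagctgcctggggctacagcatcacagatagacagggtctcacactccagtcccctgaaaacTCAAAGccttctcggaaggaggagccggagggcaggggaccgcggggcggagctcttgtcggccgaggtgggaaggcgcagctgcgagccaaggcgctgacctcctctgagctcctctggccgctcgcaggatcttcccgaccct
Wif1, chr10:121033754-121034053, plus strand: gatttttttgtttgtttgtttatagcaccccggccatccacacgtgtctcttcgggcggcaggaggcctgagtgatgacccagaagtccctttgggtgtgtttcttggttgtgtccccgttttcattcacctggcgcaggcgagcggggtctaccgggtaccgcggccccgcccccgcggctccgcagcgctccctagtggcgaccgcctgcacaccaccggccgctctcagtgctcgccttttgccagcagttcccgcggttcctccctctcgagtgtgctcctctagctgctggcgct
Sfrp2, chr3:83766071-83766370, plus strand: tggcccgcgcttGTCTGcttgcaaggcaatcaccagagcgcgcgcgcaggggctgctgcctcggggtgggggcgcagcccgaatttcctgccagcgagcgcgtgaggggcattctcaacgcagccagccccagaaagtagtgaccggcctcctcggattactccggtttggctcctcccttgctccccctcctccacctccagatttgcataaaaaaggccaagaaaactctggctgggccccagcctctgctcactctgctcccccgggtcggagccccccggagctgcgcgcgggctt
Frzb has 1 match to the TCF core, inside the GENCODE gene model, and 0 to the Smad box, Wif1 has 0 of each, and Sfrp2 has 1 Smad box and 0 TCF cores. Rspo1 has 1 Smad box and 0 TCF cores, and Dkk2 has 0 of each. A match describes letters in this window, and its absence says nothing about a factor.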

How the data were processed

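RNA of sorted mouse colon cells and organoids was sequenced in 42 libraries. The authors mapped reads to mm10 with STAR 2.5.3 and deposited, as signal, gene counts normalized with DESeq2 1.28.1 in each of 12 tables. The counting program, annotation and strand setting are not stated. Whole reads were recovered by dividing each library by its smallest step, and counts per 1000000 reads on named genes (CPM) were computed from them. Each table was fitted with limma 3.58.1 (R 4.3.3, trend) on log2 of the value plus 1, for genes with a mean of at least 10. All 12 stromal libraries were also fitted on log2 of CPM plus 0.1, for genes with a mean of at least 0.5. P values were adjusted by Benjamini-Hochberg over all genes tested, and a call needed an adjusted p under 0.05 with a log2 fold change of 1 or more in size. Alternatives were edgeR 4.0.16, DESeq2 1.42.0, other pseudocounts, filters and scalings, an unadjusted p, a block by library number and each library left out. Sex as a covariate, leaving out both libraries low in Gli1, leaving out knockout libraries in the fit of 12, and GS4T against GA3T were added after the data were seen. Proximal against distal was also computed within GS4T and within GA3T and is not used. The limma fit within a table was run on data simulated from the stromal tables. The fit of 12 libraries, edgeR and DESeq2 were not tested so. Named are the 10 genes, the deleted genes and Gli1, pathway and marker lists, and the 3 genes most correlated with each of the 10. Members and lists were chosen with earlier results of these data known. Unnamed rows were not used.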

Additional observations from a re-analysis of the deposited data

Results flagged for a closer look

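The effects of the Smad4 and Alk3 deletions on distal stromal cells differed in the direct contrast of GS4T and GA3T libraries, added after the data were seen, for Sfrp2 (log2 difference -2.31) and Wif1 (1.56). Either was lost with some libraries left out, as given for that contrast.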

How the results depend on the processing

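Of 1611 log2 fold changes under other settings, 1462 kept direction and side of the threshold, 60 newly passed it, 44 no longer did and 45, all of uncalled results, changed sign. Members called moved as follows, with the percentage of all genes called in brackets. An unadjusted p gave 5 (16%) in proximal GS4T, 5 (9.46%) in proximal GA3T, 2 (7.77%) in distal GA3T and 1 (6.83%) in proximal GA3M2 cells. DESeq2 gave 5 (6.31%) in proximal and 2 (5.03%) in distal GA3T, 3 (1.53%) and 1 (0.729%) for the GS4T and GA3T segment interactions, and 2 (1.13%) and 4 (5.05%) for GS4T against GA3T in the proximal and distal colon. The fit of 12 libraries gave 5 (11.7%) in proximal GS4T and 3 (4.64%) in proximal GA3T. Sex as a covariate, added to that fit, gave 5 (7.95%) in proximal GS4T and 3 (5.48%) in proximal GA3T, the same counts as without it. With sex the count was 1 (1.86%) in distal GA3T, 2 (0.938%) between GWTT segments and 2 (0.104%) for proximal GS4T against GA3T. Without both libraries low in Gli1 it was 5 (6.62%) in proximal GS4T, and limma called 0 (0.319%) in proximal GA3T, with 4 (5.46%) at an unadjusted p. Library numbers do not pair the libraries by the labels (same-numbered stromal libraries correlated at 0.10 to 0.19). With the number as a block it was 5 (10.6%) in proximal GS4T, 2 (1.65%) in proximal GA3T and 1 (0.0912%) for proximal GS4T against GA3T. Apart from leaving out single libraries, Dkk2 lost its call between GWTT segments under 5 of 10 settings and Rspo3 under 1 of 10. Sfrp4 lost its call in distal GS4T under 2 of 12. The cause of these moves was not tested. Leaving out a library leaves 1 library in its group. The number of the 10 called then moved, as did the number of all genes called. These counts are therefore not read as a result about the 10.

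Signs changed for Rspo1 in distal GA3T with edgeR (0.0383), DESeq2 (0.0451) and sex (0.28), for Sfrp1 in the GA3T interaction with edgeR (-0.0371), DESeq2 (-0.0268) and sex (-0.0682), and for Sfrp4 in the GA3T interaction without the libraries low in Gli1 (0.21). With a library left out, Rspo1 ranged from -0.49 to 0.45 (distal GA3T), -0.89 to 0.31 (proximal GA3T), -0.43 to 0.31 (distal GS4T), -0.47 to 0.35 (distal GS4T against GA3T), -0.89 to 0.33 (GA3T interaction), -0.0639 to 1.16 (GWTT segments) and -0.0565 to 0.35 (mean of genotypes). Rspo2 ranged from -1.29 to 0.0824 (distal GA3T) and -0.85 to 0.52 (distal GS4T), and Sfrp2 from -0.0638 to 1.45 (distal GA3T). Sfrp1 ranged from -0.41 to 0.48 (distal GA3T), -0.0419 to 0.18 (proximal GA3T), -0.37 to 0.41 (GA3T interaction) and -0.33 to 0.23 (GS4T interaction). Sfrp4 ranged from -0.60 to 0.38 (GA3T interaction), -0.60 to 0.38 (distal GS4T against GA3T), -1.22 to 0.20 (proximal GS4T against GA3T) and -1.22 to 0.20 (GS4T interaction). Dkk2 ranged from -0.51 to 0.35 (proximal GS4T) and -0.17 to 0.63 (proximal GS4T against GA3T), and Dkk3 from -0.0402 to 0.13 (proximal GA3T), -0.24 to 0.11 (distal GS4T against GA3T) and -0.0261 to 0.28 (proximal GS4T against GA3T).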
